A study of Mus musculus with 2 samples.

Results

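The 6 genes described here, of 18049 listed in both libraries, encode the nuclear receptor PPAR gamma (*Pparg*), its partner receptor RXR alpha (*Rxra*), the fatty acid translocase CD36 (*Cd36*), the fatty acid binding proteins *Fabp4* and *Fabp5*, and the lipid droplet coat protein perilipin 2 (*Plin2*). They were chosen by name, and the choice was made with results of these data known: *Fabp4* was among the genes with the highest papain-over-naive values in cDC2s with high CD301b. All values of that contrast are therefore given as a description. Antigen-presenting cells of lymph nodes were profiled by CITE-seq, which reads mRNA as unique molecular identifiers (UMIs) and surface proteins as antibody barcodes from the same cell. There was 1 library of unimmunized mice with 3471 cells and 1 library taken on day 1 after ovalbumin with the protease papain, given in both rear footpads, with 7596 cells. Both came from B6 mice without a transgene and were sorted as live MHCIIhi CD11c+ B220- cells. The number of mice behind each library is not given in the sources used here. The study's methods give popliteal nodes for papain and pooled skin-draining nodes for the naive control, so immunization and lymph node site cannot be told apart.

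PPAR gamma is a ligand-activated transcription factor that pairs with RXR and turns on genes of fatty acid uptake, transport and storage, *Fabp4* and *Cd36* among its best known targets in fat cells and macrophages. Fatty acid binding proteins carry fatty acids through the cytoplasm, CD36 brings them across the cell membrane, and perilipin 2 coats the droplets in which they are stored. Dendritic cells (DCs) fall into cDC1s, which are strong at cross-presentation, cDC2s, which prime helper T cells, and Langerhans cells (LCs), which migrate from the epidermis.

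The authors' antibody annotation gave 5 classes, namely LC, cDC1 and cDC2 with low, intermediate or high CD301b, a lectin encoded by *Mgl2*. The naive library held 440, 578, 658, 659 and 707 cells of these classes in that order, and the papain library 881, 235, 1470, 1827 and 2893. Another 429 naive and 290 papain cells had no antibody data and no class. Levels are summed UMIs of a class per 1000000 UMIs of that class (CPM). With 1 library per condition there is no replicate, so no test was made, and every 95% interval covers counting error only, not the spread between cells or mice. *Cd207*, the LC lectin, was at 45.7 CPM in naive and 58.9 CPM in papain LCs against 0.290 and 0.163 CPM in all cDC2s. *Epcam*, also listed as an LC marker, was at 102 and 156 CPM against 10.3 and 4.75 CPM. *Cd74*, listed with them, went the other way, at 2765 and 2501 CPM in LCs against 9050 and 4870 CPM in cDC2s. *Xcr1*, the cDC1 chemokine receptor, was at 16.9 and 9.44 CPM in cDC1s against 3.45 and 0.561 CPM in cDC2s. *Mgl2* itself was at 44.9 CPM in naive but 0.918 CPM in papain cDC2s, so the CD301b classes rest on surface protein. In naive cDC2s 96.8% of the *Mgl2* UMIs lay in the fifth of the mRNA clusters, of which 58.1% of cells were of the low class. The 2 libraries shared 2 cell barcodes.

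The genes lie on 5 chromosomes of the mm10 assembly. *Fabp5* (chr3:10012585-10016610) and *Fabp4* (chr3:10204342-10208616) are neighbours in a cluster of binding protein genes on chromosome 3, while *Rxra* lies on chromosome 2, *Plin2* on 4, *Cd36* on 5 and *Pparg* on 6. RefSeq promoter sequences of GRCm38.p6, the mm10 assembly, were matched for 4 of the 6 genes, with 250 bases before and 50 after each start. The promoters of *Cd36* and *Plin2* are printed because these are the matched genes that reached 10 CPM in any class. Capitals mark the letters of AGGTCA, the 6-base half-site of nuclear receptors, which here lie on the other strand and read TGACCT. The *Cd36* window is chr5:17835847-17836146 and the *Plin2* window chr4:86670010-86670309, both on the minus strand.
Cd36: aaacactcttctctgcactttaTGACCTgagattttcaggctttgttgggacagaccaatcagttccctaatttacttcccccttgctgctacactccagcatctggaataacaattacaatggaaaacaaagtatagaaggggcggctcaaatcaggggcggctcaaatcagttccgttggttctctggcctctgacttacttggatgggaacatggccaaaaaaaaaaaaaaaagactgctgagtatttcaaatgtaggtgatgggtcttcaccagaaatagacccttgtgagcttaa
Plin2: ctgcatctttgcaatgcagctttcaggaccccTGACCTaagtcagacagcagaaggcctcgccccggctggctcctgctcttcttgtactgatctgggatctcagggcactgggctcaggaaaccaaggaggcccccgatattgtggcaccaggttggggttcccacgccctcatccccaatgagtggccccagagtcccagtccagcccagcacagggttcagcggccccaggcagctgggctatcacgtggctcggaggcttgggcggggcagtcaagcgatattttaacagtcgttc
The half-site begins at base 23 of the *Cd36* and base 33 of the *Plin2* window. AGGTCA was found on either strand in 5340 of 32851 promoters of this length, which is 16.3%. The direct repeat called DR1, in which this half-site occurs again after a spacer of 1 base and which PPAR binds with RXR, was found in 13 promoters (0.0396%), and in none of the windows of the 4 matched genes. A match is a run of letters, not a site shown to be bound.

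The carriers *Fabp4* and *Fabp5* were higher in the papain than in the naive library in all 5 classes. *Cd36* was lower in all 3 cDC2 classes and, on 8 naive UMIs and 1 papain UMI, in LCs. *Plin2* was higher in LCs and in cDC2s with intermediate or high CD301b. A gene was compared by fold where it reached 10 CPM in the higher of the 2 groups, on the scale of log2(CPM + 1). In LCs 3 of the 6 members reached that level, and 2 of them were at least 2-fold higher with papain, against 3.93% of 7582 genes. In cDC1s 2 of 3 were, against 2.25%. In cDC2s with low CD301b 2 of 3 were, against 2.48%, and with high CD301b 2 of 3, against 1.95%, although *Fabp4* was picked for this last contrast. With intermediate CD301b 2 of 4 members were at least 2-fold higher, against 2.19%, and 1 was at least 2-fold lower, against 4.36%. No member was at least 2-fold lower elsewhere among those that reached the level, where 2.27% of genes were in LCs, 4.75% in cDC1s, 5.83% with low and 3.63% with high CD301b. *Fabp4* in LCs and cDC1s and *Cd36* in cDC2s with intermediate CD301b reached 10 CPM in only 1 of the libraries, so these counts over members lend no support of their own.

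**Figure D1:**
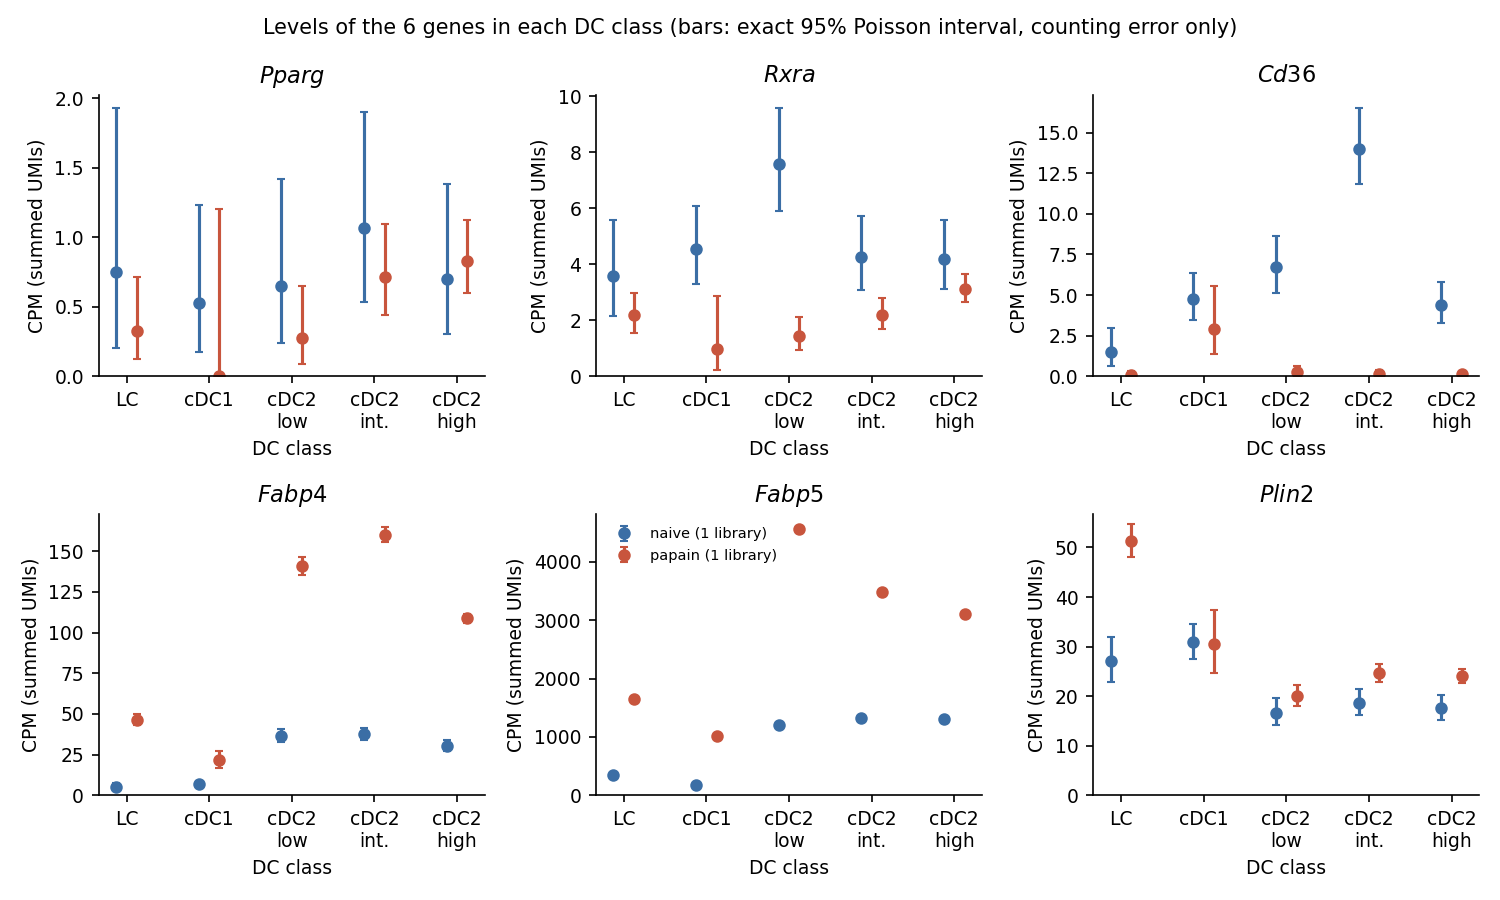
Levels of the 6 genes in CPM (linear axis from 0, one panel a gene) in each DC class, naive and papain, 1 library each; points are summed UMIs per 1000000 and bars exact 95% Poisson intervals. Fabp4 and Fabp5 were higher with papain in all 5 classes, while Cd36 was highest, at 14.03 CPM, in naive cDC2s with intermediate CD301b.

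The receptors were near the limit of detection. *Pparg* gave between 4 and 11 UMIs in each naive class, that is 0.527 CPM in cDC1s to 1.06 CPM in cDC2s with intermediate CD301b. In the papain library it gave 6 UMIs in LCs, none in cDC1s, and 5, 21 and 42 UMIs in cDC2s with low, intermediate and high CD301b, the last at 0.830 CPM. None of 235 papain cDC1s held a *Pparg* UMI, which allows a share of up to 1.28% of cells. No class had more than 1.37% of cells with a UMI, and none of 237 naive droplets with a T cell transcript held one, which allows up to 1.27%. For a receptor at this depth, the log2 difference between papain and naive spanned 0 in LCs and in each cDC2 class. A level this low was read as present in few cells and not as a difference.

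*Rxra*, the obligate partner of PPAR gamma and of other receptors, was lower with papain in cDC2s with low CD301b, at 7.59 CPM naive and 1.44 CPM papain (log2 ratio -1.81, 95% interval -2.26 to -1.34). It was at 4.26 and 2.18 CPM with intermediate CD301b (-0.73, -1.16 to -0.28) and at 4.20 and 3.12 CPM with high CD301b (-0.34, -0.72 to 0.05), where the interval reaches 0. In cDC1s it was at 4.53 CPM from 43 UMIs naive and 0.976 CPM from 3 UMIs papain (-1.48, -2.26 to -0.44). LCs had 3.57 and 2.18 CPM (-0.52, -1.14 to 0.11). All of these lie under 10 CPM. Droplets without a class that held a T cell transcript had 6.03 CPM of *Rxra* naive (3.30 to 10.1) and 2.67 CPM papain (0.868 to 6.24), and no DC class of the same library was above them beyond counting error.

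*Cd36* was at 6.72 CPM in naive cDC2s with low CD301b (62 UMIs), 14.03 CPM with intermediate (145 UMIs) and 4.38 CPM with high CD301b (50 UMIs). In the papain library the same classes had 5, 4 and 8 UMIs, or 0.277, 0.136 and 0.158 CPM. The log2 ratios were -2.60 (-2.89 to -2.13), -3.73 (-3.88 to -3.43) and -2.22 (-2.43 to -1.89). LCs had 1.51 CPM from 8 UMIs naive and 0.0545 CPM from 1 UMI papain. The 8 naive UMIs lay in 3 LCs, 6 of them in a single cell. The LC log2 ratio was -1.25, and -0.15 without the deepest 5% of cells. cDC1s had 4.74 and 2.93 CPM, and their interval spanned 0 (-0.55, -1.38 to 0.29). The naive signal was uneven among cells. Of the 145 UMIs with intermediate CD301b, 58 came from a single cell, which also held 22 *Plin2* and 24 *Fabp5* UMIs and no *Fabp4*. Without that cell the class had 8.46 CPM and a log2 ratio of -3.06 (-3.23 to -2.73), so it no longer reached 10 CPM.

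Most of the naive *Cd36* lay in the fifth of the authors' mRNA clusters of naive cDC2s. This cluster held 246 cells, or 12.2% of naive cDC2s, and 77.4% of their *Cd36* UMIs, 46.3% of *Rxra*, 48.0% of the 25 *Pparg* UMIs and 28.6% of *Plin2*, but 4.46% of *Fabp4* and 6.0% of *Fabp5*. Its cells had 3763 CPM of *Lyz2*, the lysozyme gene of myeloid cells, 257 CPM of *Cd209a* and 276 CPM of *Mgl2*. *Ccr7*, the receptor that guides DCs to lymph nodes, was lowest there, at 1389 CPM against 2754 to 5029 CPM in the other naive clusters. *C1qa*, a complement gene of macrophages, was at 64.5 CPM there, in 3.25% of the cells, and *Adgre1*, the macrophage marker F4/80, at 46.4 CPM in 38.2% of the cells, against 3.05 to 11.5 CPM in the other naive clusters. The part of macrophage transcripts in the *Cd36* level was not tested. The cluster made up 143 of the 658 cells with low, 64 with intermediate and 39 with high CD301b. Leaving its cells out, a choice made after seeing the data, changed the *Cd36* log2 ratio to -0.88 (-1.36 to -0.21) with low, -2.02 (-2.25 to -1.60) with intermediate and -1.18 (-1.49 to -0.74) with high CD301b. For *Rxra* the ratio with low CD301b became -0.71 (-1.30 to -0.09), and with intermediate CD301b -0.42 (-0.91 to 0.07), which spans 0. The ratios of *Fabp4* went from 1.92, 2.06 and 1.80 to 1.58, 1.88 and 1.74, in the order low, intermediate and high. Those of *Fabp5* went from 1.92, 1.38 and 1.25 to 1.66, 1.24 and 1.15 in the same order. All were smaller, and all stayed positive.

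*Fabp4*, the fatty acid carrier of fat cells and macrophages, was at 36.6 CPM (95% interval 32.8 to 40.7) in naive cDC2s with low CD301b and 141 CPM (136 to 147) in papain, a log2 ratio of 1.92 (1.76 to 2.08) or 3.77-fold. Intermediate CD301b gave 37.6 CPM (34.0 to 41.6) and 160 CPM (156 to 165), 2.06 (1.91 to 2.21) or 4.17-fold. High CD301b gave 30.6 CPM (27.4 to 33.9) and 109 CPM (106 to 112), 1.80 (1.65 to 1.95) or 3.48-fold. In the papain library the order was therefore intermediate, low, then high, with intervals that did not overlap. The naive values had the same order, but the interval with low CD301b overlapped those with intermediate and with high CD301b. Of 7226 genes compared with high CD301b, 14 had a higher ratio. *Fabp4* was chosen for its high value in that contrast, so its rank there is only a description. With intermediate CD301b 10 of 7359 genes had a higher ratio.

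In LCs *Fabp4* was at 5.27 CPM (3.50 to 7.61) naive, 28 UMIs in 3 cells, and 46.5 CPM (43.5 to 49.8) papain, 854 UMIs in 125 cells, a log2 ratio of 2.92 (2.45 to 3.41). This was 7.58-fold, and 6 of 7582 genes were higher, but the naive value rests on 3 cells. In cDC1s it was at 6.95 CPM (5.38 to 8.84) and 21.5 CPM (16.6 to 27.3), 66 UMIs in each library (1.499, 1.03 to 1.97). The 66 naive UMIs lay in 16 of 578 cells, 21 of them in a single cell. The naive value also depended on cells with T cell transcripts. Without the 78 naive and 11 papain cDC1s that held a *Cd3e* or *Trac* UMI, cDC1s had 1.75 CPM from 14 UMIs naive and 22.8 CPM papain, a log2 ratio of 3.11 (2.48 to 3.70). The droplets without a class that held a T cell transcript had 0.862 CPM of *Fabp4* naive and 1.60 CPM papain.

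*Fabp5*, the epidermal fatty acid binding protein, which is also made by macrophages and DCs, was at 1207 CPM in naive and 4562 CPM in papain cDC2s with low CD301b (log2 ratio 1.92, 1.89 to 1.95). It was at 1331 and 3474 CPM with intermediate (1.38, 1.36 to 1.41) and at 1305 and 3100 CPM with high CD301b (1.25, 1.22 to 1.27). LCs had 346 CPM naive and 1653 CPM papain (2.25, 2.18 to 2.32), and cDC1s 179 and 1009 CPM (2.49, 2.41 to 2.58). The 5.62-fold difference in cDC1s was exceeded by 7 of 7238 genes, and the 2.37-fold difference with high CD301b by 69 of 7226. The naive cDC2 classes were close to each other, while in the papain library *Fabp5* was lower the higher the CD301b class. Droplets with a T cell transcript had 172 CPM naive and 162 CPM papain. The naive cDC1 level, with an interval of 170 to 187 CPM, was not above that of these droplets beyond counting error. Naive cDC1s without a *Cd3e* or *Trac* UMI had 143 CPM. Whether these droplets mark a background level was not tested.

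*Plin2* differed less. In LCs it was at 27.1 CPM (22.8 to 31.9) naive and 51.3 CPM (48.1 to 54.7) papain, a log2 ratio of 0.90 (0.65 to 1.15) or 1.86-fold. cDC2s had 16.7 and 20.1 CPM with low (0.25, -0.01 to 0.52), 18.7 and 24.6 CPM with intermediate (0.38, 0.16 to 0.60) and 17.6 and 24.1 CPM with high CD301b (0.43, 0.23 to 0.64). Without the fifth naive cluster the ratio with intermediate CD301b was 0.89 (0.62 to 1.16). cDC1s had 30.9 and 30.6 CPM (-0.01, -0.35 to 0.32), so any difference there was within that interval. The T cell droplets had 6.46 and 10.7 CPM. LCs with papain had the highest level of this droplet coat gene among the 10 groups.

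**Figure D2:**
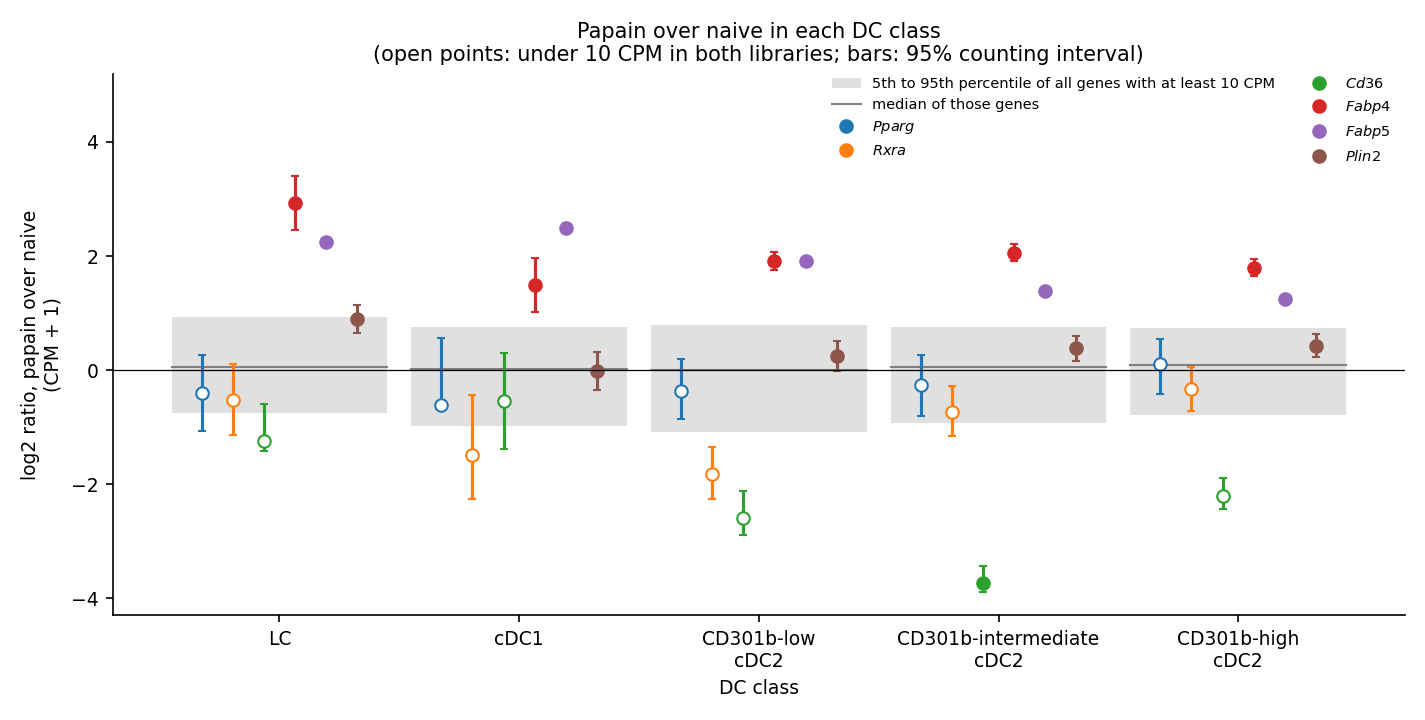
Log2 ratio of CPM + 1, papain over naive, for each of the 6 genes in each DC class; bars are 95% counting intervals, open points were under 10 CPM in both libraries, and grey bands span the 5th to 95th percentile of all genes with at least 10 CPM. Fabp4 and Fabp5 lie above the band in all 5 classes, and Cd36 in cDC2s with intermediate CD301b lies below it at -3.73.

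CD301b marked different levels of *Fabp4* in both libraries and of *Fabp5* mainly in the papain library. With high against low CD301b no member was at least 2-fold apart in either library, where 0.763% of genes were higher and 3.24% lower in the naive library and 0.795% and 1.23% in the papain library. *Fabp5* was lower with high CD301b in papain (log2 ratio -0.56, -0.57 to -0.55) and slightly higher in naive cells (0.11, 0.08 to 0.15). Without the fifth naive cluster the naive value was -0.05 (-0.08 to -0.01). *Fabp4* was lower with high CD301b in both, by -0.37 (-0.44 to -0.30) in papain and -0.25 (-0.47 to -0.04) in naive cells. Its naive value was -0.54 (-0.76 to -0.31) without the fifth naive cluster. *Rxra* was lower with high CD301b in naive cells (-0.72, -1.19 to -0.26) and higher in papain cells (0.76, 0.36 to 1.13). Its naive value changed sign to 0.21 (-0.42 to 0.84) without the fifth cluster. *Plin2* was at 0.25 (0.09 to 0.42) in papain and 0.07 (-0.22 to 0.37) in naive cells. *Pparg* was at 0.52 (0.10 to 0.80) in papain cells, from 42 against 5 UMIs.

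When cDC2s were ranked by their CD301b antibody value and cut into 5 equal bins, *Fabp4* in the papain library was at 130 CPM in the lowest bin, 172, 146 and 129 CPM in the next 3, and 78.0 CPM in the highest. *Fabp5* went from 4677 CPM in the lowest bin to 3041 and 3089 CPM in the upper 2 bins. *Rxra* went from 1.10 CPM to 3.21 CPM. So *Fabp4* peaked in the second bin, while *Fabp5* was highest where CD301b was lowest. In the naive library *Fabp5* lay between 1182 and 1335 CPM. Naive *Fabp4* was highest in the lowest bin, at 43.3 CPM (38.1 to 49.0). It was lowest in the highest bin, at 27.0 CPM (23.2 to 31.3), so the top bin had least *Fabp4* in both libraries.

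**Figure D3:**
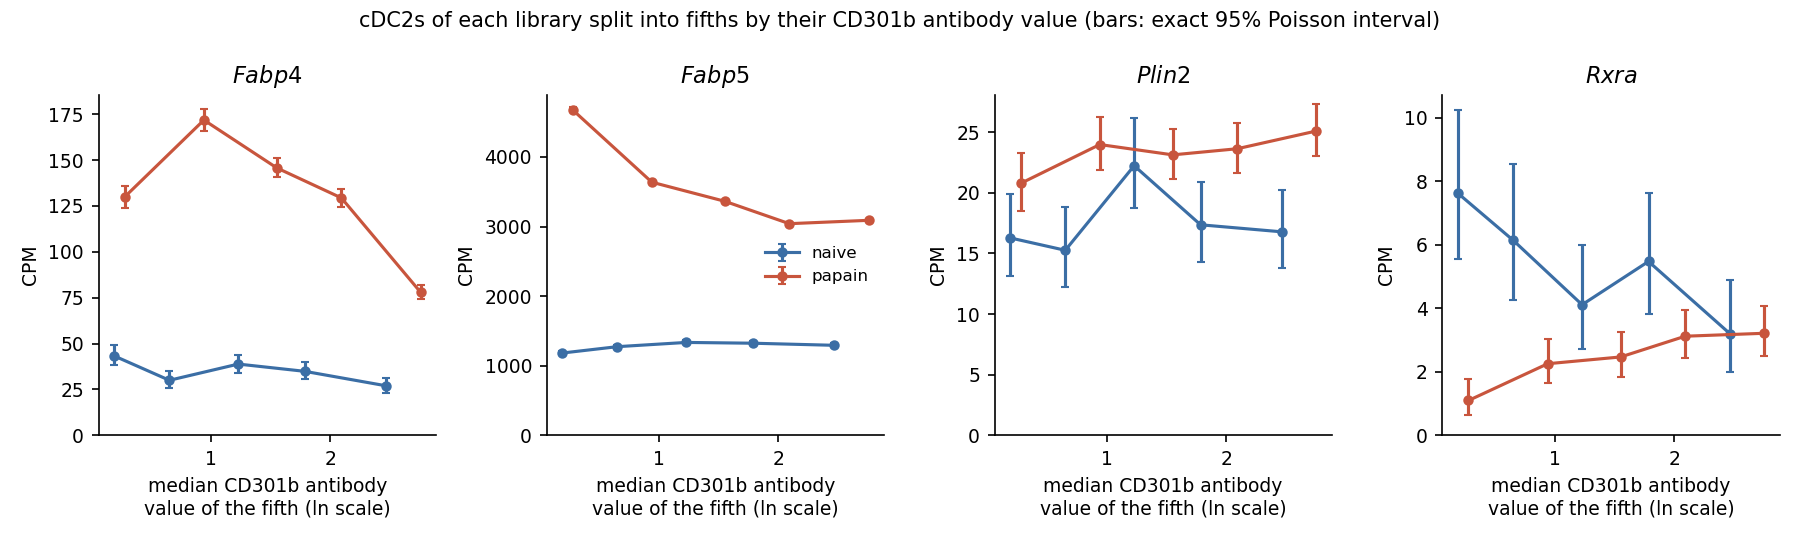
CPM of Fabp4, Fabp5, Plin2 and Rxra in 5 equal bins of cDC2s ranked by CD301b antibody value (x axis, median antibody value of the bin; y axis, CPM from summed UMIs), naive and papain, with exact 95% Poisson bars. Papain Fabp4 was at 172 CPM in the second bin and 78.0 CPM in the highest, and papain Fabp5 was highest, at 4677 CPM, in the lowest bin.

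Against all cDC2s of the same library, LCs had lower carriers and more *Plin2*. In naive cells 2 of 3 members were at least 2-fold lower in LCs, where 6.05% of genes were, and none was higher, where 3.66% were. In papain cells 2 of 3 were lower, where 1.92% were, and 1 was higher, where 2.46% were. *Fabp4* was at -2.51 (-3.00 to -2.04) on the log2 scale in naive and -1.46 (-1.56 to -1.36) in papain LCs, and *Fabp5* at -1.89 and -1.07. *Plin2* was at 0.59 (0.32 to 0.85) and 1.09 (0.986 to 1.201), 2.13-fold in the papain library. In cDC1s 2 of 3 members were at least 2-fold lower than in cDC2s in both libraries, where 6.91% of genes were in naive and 6.05% in papain cells, and none was higher, where 4.77% and 3.62% were. These were *Fabp4* at -2.17 and -2.54 and *Fabp5* at -2.84 and -1.79 in naive and papain cells. In the naive library *Fabp4* reached 10 CPM in cDC2s, but not in LCs (5.27 CPM) or cDC1s (6.95 CPM). It could only be counted as lower there, so the naive counts of lower members lend no support of their own. Without the cells that held a *Cd3e* or *Trac* UMI, an alternative chosen after seeing the data, *Fabp4* was at -3.66 (-4.16 to -3.14) in naive and -2.46 (-2.81 to -2.12) in papain cDC1s, and *Fabp5* at -3.18 and -1.73. *Plin2* was at 0.77 (0.57 to 0.97) in naive and 0.37 (0.06 to 0.66) in papain cDC1s.

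The 2 carriers were spread over cells in different ways. Of cDC2s with low CD301b, 12.3% of naive and 27.3% of papain cells held a *Fabp4* UMI, as did 10.9% and 34.5% with intermediate, and 9.48% and 27.8% with high CD301b. With each cell thinned to 8392 UMIs, leaving out 204 naive and 519 papain cDC2s below that depth, the papain shares were 26.9%, 29.9% and 22.6% and the naive shares 9.85%, 8.79% and 7.52%. LCs went from 0.682% to 14.2% of cells, or 0.725% and 10.6% after thinning, and their median depth was 10767.5 UMIs naive and 18290 papain. Of naive T cell droplets, at a median depth of 7626 UMIs, 0.844% held a *Fabp4* UMI, so the naive LC share was not above theirs. The naive LC level was above theirs, at 5.27 CPM against 0.862 CPM (0.104 to 3.11), and 19 of the 28 LC UMIs lay in a single cell. Of papain T cell droplets, at a median of 6980 UMIs, 1.24% held one. In cDC1s 2.77% of naive and 7.23% of papain cells held one.

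The *Fabp4* UMIs were held by few cells. Of papain cDC2s, 6.19% with low, 8.92% with intermediate and 6.67% with high CD301b held 10 or more UMIs, against 1.22%, 1.67% and 1.56% in the naive library. The most in any cell was 58. The top 5% of papain cDC2s held 53.0% of the UMIs, and the median cell of each class held none. *Fabp5* was different, since 99.0% of papain cDC2s with low, 99.1% with intermediate and 99.5% with high CD301b held a UMI, against 86.8%, 93.2% and 94.2% in the naive library. Its top 5% of papain cDC2s held 17.6% of the UMIs. The *Fabp5* level of the median cell was 753 CPM naive and 3757 CPM papain with low, 809 and 2881 CPM with intermediate, and 945 and 2566 CPM with high CD301b. In LCs it was 73.5 and 902 CPM and in cDC1s 51.0 and 482 CPM. The higher *Fabp5* of the papain library was thus a feature of the median cell, whereas the higher *Fabp4* was carried by a part of the cells.

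**Figure D4:**
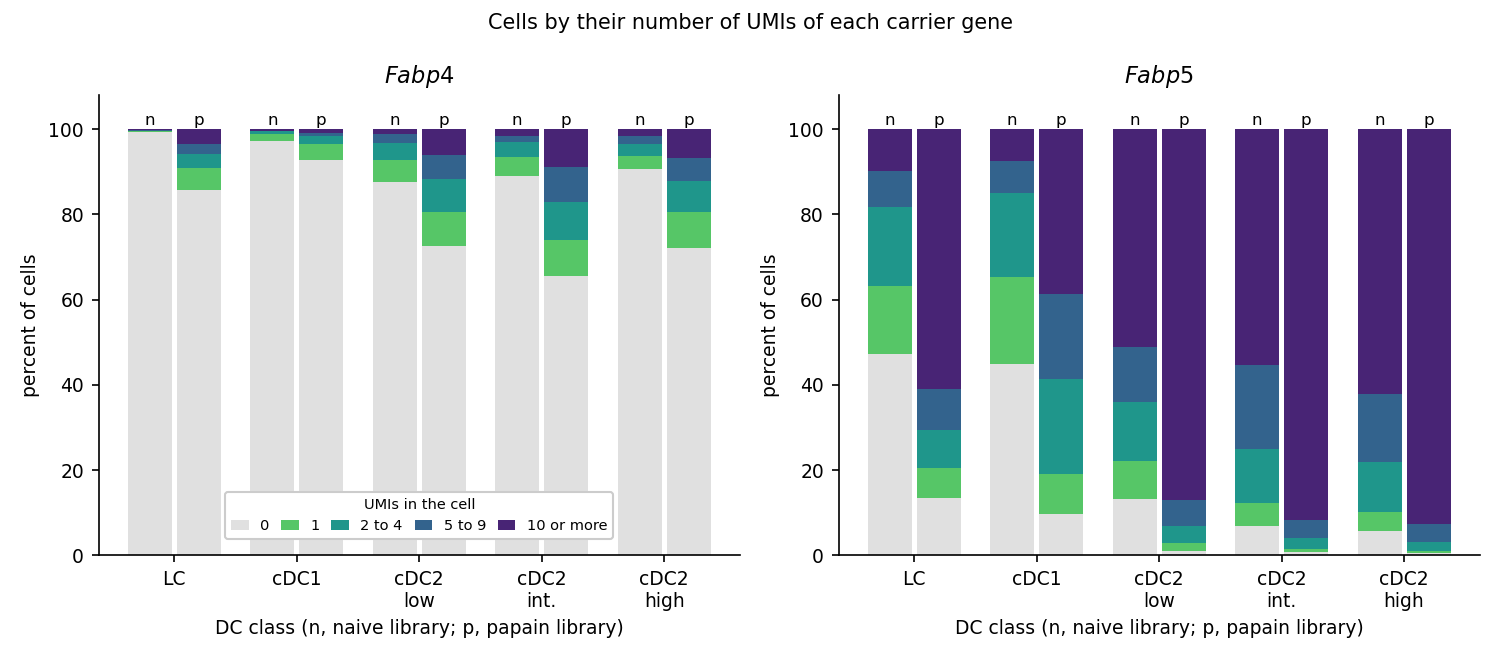
Percent of cells (stacked to 100) by their number of Fabp4 or Fabp5 UMIs in each DC class, naive (n) and papain (p) side by side. Most cells held no Fabp4 UMI in either library, and 8.92% of papain cDC2s with intermediate CD301b held 10 or more, while 61.1% of papain LCs and 9.77% of naive LCs held 10 or more Fabp5 UMIs.

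The authors' mRNA clusters of cDC2s, 7 naive and 9 papain, were built on genes that may include these, so differences between clusters are a description. Within the papain library *Fabp4* was highest in clusters 1 and 3, at 199 CPM (194 to 204) and 198 CPM (190 to 206), and lowest in cluster 2, at 26.0 CPM (23.8 to 28.4). Cluster 1 held 1430 cells, 42.7% of them with a *Fabp4* UMI, and gave 41.5% of the library's cDC2 *Fabp4* UMIs. It also gave 52.9% of the 68 *Pparg* UMIs, too few to be read as a difference. The cluster was 23.1% of papain cDC2s, at a median depth of 18323 UMIs against 14783.5 in all of them. Cluster 2 held 1294 cells, 10.6% with a *Fabp4* UMI, and gave 3.94% of the *Fabp4* UMIs. *Fabp5* followed another order, with 6367 CPM in cluster 7, 5982 CPM in cluster 4 and 3997 CPM in cluster 2, against 2638 CPM in cluster 1 and 1026 CPM in cluster 9. The papain cluster with least *Fabp4* was therefore the third highest in *Fabp5*. In the naive library *Fabp4* was at 109 CPM in cluster 4 and 1.77 CPM in cluster 2, while *Fabp5* was at 1309 and 1535 CPM in the same clusters. *Plin2* was at 33.9 CPM in papain cluster 1 and 8.98 CPM in papain cluster 7.

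**Figure D5:**
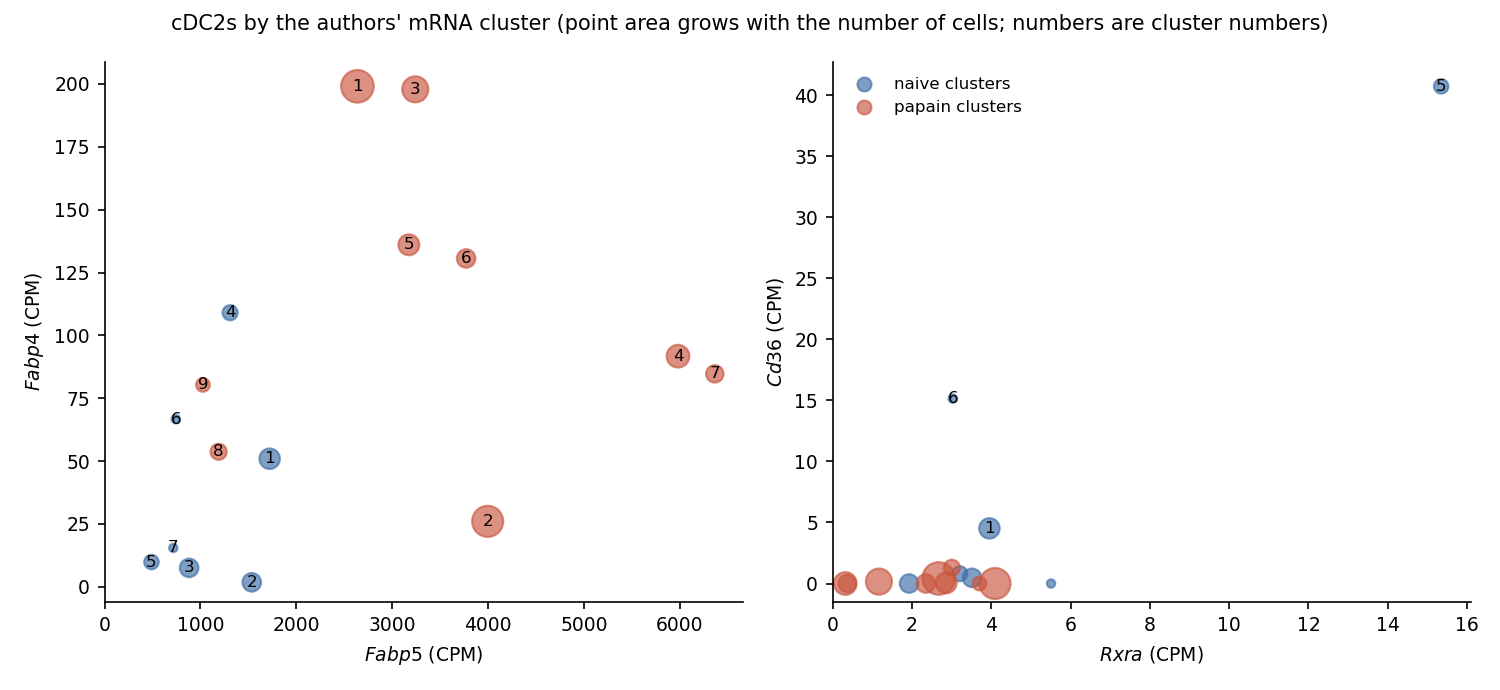
Each point is an authors' mRNA cluster of cDC2s (7 naive, 9 papain), placed by the CPM of Fabp5 (x) and Fabp4 (y) in one panel and of Rxra (x) and Cd36 (y) in the other, and sized by its number of cells. Naive cluster 5 stands apart in Cd36 at 40.7 CPM, and papain cluster 2 has 26.0 CPM of Fabp4 with 3997 CPM of Fabp5.

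Cells with a *Fabp4* UMI also had more *Fabp5*. At the thinned depth, naive cDC2s with a *Fabp4* UMI had a mean of 15.9 *Fabp5* UMIs and those without 10.2, and in papain cDC2s the means were 32.8 and 29.3. By papain class they were 44.8 and 38.1 with low, 31.8 and 28.9 with intermediate, and 27.2 and 25.9 with high CD301b. No interval was made for these means, and the part of cluster make-up in them was not tested. In papain LCs the mean *Fabp5* UMIs were 19.9 and 11.5. *Plin2* was seen in 30.6% (21.0 to 41.5) of papain LCs with a *Fabp4* UMI and 31.8% (28.3 to 35.4) of those without, so no difference was detectable there. In papain cDC2s *Plin2* was seen in 19.2% (17.2 to 21.3) of cells with a *Fabp4* UMI and 15.2% (14.1 to 16.3) of those without. With high CD301b these papain shares were 21.5% and 15.8%, and their intervals did not overlap. The intervals overlapped in papain cDC2s with low or intermediate CD301b and in naive cDC2s. The part of cluster make-up in these shares was not tested. Naive cDC2s with a *Cd36* UMI, 66 cells with a median of 20374.5 UMIs, had 71.5 CPM of *Fabp4*, 47.9 CPM of *Plin2* and 903 CPM of *Fabp5*. The other 1958, with a median of 14042.5 UMIs, had 32.9, 16.2 and 1303 CPM. The cells with *Cd36* were also deeper, and of their 69 *Plin2* UMIs 22 came from the single cell with 58 *Cd36* UMIs. At the thinned depth *Cd36* was seen in 3.11% (1.016 to 7.10) of naive cDC2s with a *Fabp4* UMI and 2.17% (1.52 to 2.99) of those without, so no difference was detectable. The fifth naive cluster, which held most of the *Cd36*, had 9.82 CPM of *Fabp4* with a UMI in 2.85% of its cells, below the 34.7 CPM of all naive cDC2s.

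Over the 10 groups of class and library, and among 3288 genes that reached 50 CPM in the highest group, the genes with the pattern most like *Fabp4* were *Rpsa-ps9* (Pearson's r = 0.993), *Stxbp6* (0.981) and *Il2ra*, the IL-2 receptor alpha chain (0.974). For *Fabp5* they were *Gm14328* (0.993), *Rpsa-ps9* (0.983) and *Gm6166* (0.983). For *Plin2* they were *Parp3* (0.972), *Rhoc* (0.960) and *Dcaf11* (0.939), and for *Cd36* they were *Plbd1* (0.931), *Alox5ap* (0.906) and *Gm2a* (0.905). *Rxra* was most like *Hk2* (0.941), *Arih1* (0.922) and *Dgat1* (0.914). *Pparg*, on 0 to 42 UMIs a group, was most like *Vps13a* (0.920), *Golga4* (0.906) and *Kdm5c* (0.891). The 10 groups share 2 libraries and their depths, so these are descriptions. *Gm14328* is a pseudogene in RefSeq and had 5.03 to 7.39 UMIs per 100 *Fabp5* UMIs in every group, so reads of *Fabp5* counted under it cannot be told apart from its own.

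Other genes of PPAR signalling and lipid handling went both ways. The list held 57 genes, of which 45 were analysed here and 26 to 28 reached 10 CPM. Papain over naive in LCs, 2 of 28 (7.14%) were at least 2-fold higher, against 3.93% of all genes, and none lower, against 2.27%. In cDC1s none of 26 was higher, against 2.25%, and 2 (7.69%) were lower, against 4.75%. With low CD301b 2 of 27 (7.41%) were higher, against 2.48%, and 5 (18.5%) lower, against 5.83%. With intermediate CD301b none of 27 was higher, against 2.19%, and 5 (18.5%) were lower, against 4.36%. With high CD301b 1 of 27 (3.70%) was higher, against 1.95%, and 3 (11.1%) were lower, against 3.63%. The list's median log2 ratio was 0.14 in LCs, 0.08 in cDC1s and with low CD301b, 0.11 with intermediate and 0.16 with high CD301b, against 0.06, 0.02, 0.01, 0.05 and 0.09 over all genes. None of the 6 or 7 receptors and partners that reached the level was 2-fold apart in any class.

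The genes that were higher belonged to oxidation and its control, 2 of 8 in LCs and with low CD301b and 1 of 8 with high CD301b, where 3.93%, 2.48% and 1.95% of all genes were, and none of 8 in cDC1s or with intermediate CD301b. *Etfdh*, which passes electrons from fatty acid oxidation to ubiquinone, was at 1.15 in LCs, 1.06 with low and 1.03 with high CD301b on the log2 scale. *Acadm*, the medium-chain acyl-CoA dehydrogenase, was at 1.05 in LCs and 1.04 with low CD301b. Of the genes of lipid droplets, storage and lipolysis, 3 of 6 were at least 2-fold lower with low, 2 of 6 with intermediate and 1 of 6 with high CD301b, 2 of 6 in cDC1s and none of 8 in LCs, where 5.83%, 4.36%, 3.63%, 4.75% and 2.27% of all genes were, in that order. *Lpl*, the lipase that frees fatty acids from lipoproteins, was at 37.6 CPM naive and 8.36 CPM papain with low CD301b, 47.4 and 0.919 CPM with intermediate, and 35.99 and 1.42 CPM with high CD301b. *Dgat1*, which makes triglyceride, was at -1.92, -1.37 and -1.03 in the same classes and at -2.23 in cDC1s, from 49.4 to 9.76 CPM. *Hilpda*, a lipid droplet protein that holds back lipolysis, was at -1.25 with low CD301b and -2.39 in cDC1s.

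*Apoe*, the apolipoprotein of cholesterol efflux, was at -1.83 with low and -2.28 with intermediate CD301b. *Scd2*, a fatty acid desaturase, was at -1.01 and -1.34 in these classes, and *Lipa*, the lysosomal lipase, at -1.28 with intermediate and -1.42 with high CD301b. These counts moved with the naive cluster rich in *Cd36*, and so did the share over all genes. Without its cells the list's genes at least 2-fold lower numbered 2 with low and 1 each with intermediate and high CD301b, of 26 each, against 2.98%, 2.43% and 2.41% of all genes. *Dgat1* was among them in all 3 classes, at -1.95, -1.33 and -1.04, and *Apoe* was the other with low CD301b, at -1.02. *Lpl* then had 5.83, 8.21 and 7.04 CPM in the naive classes, under the 10 CPM level. The genes at least 2-fold higher numbered 1 with low CD301b, *Acadm* at 1.12, and none with intermediate or high CD301b, against 2.23%, 2.04% and 1.94% of all genes. With high against low CD301b in the naive library, *Apoe* was at -4.00 and *Dgat1* at -1.004, 2 lower and none higher of 27. In the papain library *Apoe* alone was past 2-fold, at -1.54.

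*Fabp4*, *Fabp5* and *Cd36* are also known from fat cells, endothelium and keratinocytes, so markers of these were summed in each class. Of 6 adipocyte markers, 2 were analysed here, *Adipoq* and *Retn*, and they summed to 2.01 to 4.89 CPM in naive and 1.33 to 2.28 CPM in papain classes. Of 7 endothelial markers, 5 were, at 7.71 to 16.8 and 4.01 to 11.9 CPM, and of 4 keratinocyte markers *Krt10* alone, at 2.42 to 4.33 and 1.60 to 2.22 CPM. The adipocyte and keratinocyte sums were lower in the papain library in all 5 classes. The endothelial sum was lower in 4 classes and higher in cDC1s, at 8.005 CPM naive and 8.79 CPM papain, and with low CD301b *Kdr*, an endothelial receptor, was at 3.03 and 9.25 CPM. Without the cells that held a UMI of any of these markers, the papain-over-naive log2 ratio was 1.65 to 2.56 for *Fabp4* and 1.22 to 2.51 for *Fabp5* over the 5 classes. Macrophage markers, 6 of 8, were at 3.69 to 62.0 and 3.25 to 21.7 CPM. T cell markers, 4 of 4, were at 9.55 to 146 and 8.36 to 20.5 CPM, and B cell markers, 4 of 4, at 12.7 to 62.5 and 4.49 to 31.6 CPM. The single stromal marker of 3 was at 0.963 to 19.2 and 0.830 to 10.1 CPM, and no neutrophil marker was analysed here.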

How the data were processed

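Cells were sorted from lymph nodes of B6 mice and profiled with 10x 3' mRNA and 12 antibodies, 1 library per condition. Per the labels and the study's methods, Cell Ranger 3.0.1 and Partek were used with mm10; the annotation and cell filters are not given in the sources used here. The deposited gene values are log2(CPM + 1) per cell, made by the authors, beside the deposited counts of expressed genes per cell, the percent of mitochondrial reads, and a total score that is the sum of the log2 values. The deposited antibody values are a natural log of counts centred within a cell by the authors, beside antibody counts. Cell classes and mRNA clusters are the authors' annotation. UMIs were recovered from the log2 values: among values no greater than 50 UMIs, 100% lay within 0.02 of a whole number. Cells had medians of 13764 (naive) and 14738 (papain) UMIs, and libraries 53095046 and 122133401 in all.

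UMIs were summed per class and library and divided by the class total. Levels carry exact 95% Poisson intervals, shares exact Clopper-Pearson intervals, and log2 ratios, with a pseudocount of 1 CPM, an interval from the exact binomial split of the UMIs. UMIs of 1 cell are not independent, so intervals cover counting error only. Folds were counted at 2-fold where the higher group reached 10 CPM; a count of 0 was limited by 3 counts. With 1 library per condition no test was made. Shares were repeated with cells thinned to 8392 UMIs, the 10th percentile of depth. No doublet caller was run; leaving out the deepest 5% of cells was an alternative, beside another pseudocount, scaling, filters and leaving out cells with markers of other cell types. The steps were tested on simulated data. Genes named were all 6 members, genes of the lipid list past 2-fold (up to 5 in each direction), and the 3 genes most alike to each member; cluster marker genes were named after their values were seen. Members and lists were chosen with earlier results of these data known. Python 3.11.15, numpy 2.4.6, scipy 1.17.1, pandas 2.3.3 and matplotlib 3.10.9 were used.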

Additional observations from a re-analysis of the deposited data

Results flagged for a closer look

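The difference between cDC2s with high and low CD301b had opposite directions in the 2 libraries for 2 genes; the difference between the libraries was not tested, since each is 1 sample. *Rxra* had a log2 ratio of -0.72 in naive and 0.76 in papain cells, from 1.44 to 7.59 CPM. *Fabp5* had 0.11 in naive and -0.56 in papain cells. Without the fifth naive cluster the naive values were 0.21 for *Rxra* and -0.05 for *Fabp5*, so the opposite directions did not hold there.

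Cells without antibody data, which entered no comparison of classes, held *Fabp5* at 566 CPM in the papain and 501 CPM in the naive library, intervals 538 to 595 and 485 to 517. These cells included 237 naive and 241 papain droplets with a T cell transcript, whose *Fabp5* was at 172 and 162 CPM.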

How the results depend on the processing

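No paired analysis was possible because each condition has 1 library and the labels give no replicate numbers. *Fabp4* and *Fabp5* were higher with papain in all 5 classes under every alternative run, at log2 ratios of 0.89 (cDC1, pseudocount of 10 CPM) to 3.11 for *Fabp4* and 1.15 to 2.86 for *Fabp5*. Counts of genes past 2-fold stayed within 1.5 times in 168 of 198 cases, and log2 ratios within their counting interval in 276 of 354. These totals include cases that could not move. Leaving out the fifth naive cluster could not change LCs, cDC1s or the papain comparison of high with low CD301b. A count of 0 that stayed 0 was also scored as unchanged. With a pseudocount of 10 CPM, 1 member was higher in cDC1s, and the lipid list had none higher in LCs or with low or high CD301b (0 each) and lower counts of 1 in cDC1s, 3 with low, 2 with intermediate and 1 with high CD301b. With means of single-cell CPM, the list had 2 lower in LCs and 1 higher with low CD301b. Scaling to a median ratio of 0 gave 1 higher and 2 lower in LCs and 0 higher with high CD301b. Without cells holding *Cd3e* or *Trac*, 1 list gene was lower in cDC1s. Without the deepest 5% of cells, 1 was higher and 1 lower in LCs. Without the 493 naive and 763 papain cells holding adipocyte, endothelial or keratinocyte markers, 1 was lower in LCs, 4 in cDC1s and 3 with intermediate CD301b, and 0 higher with high CD301b. Without the fifth naive cluster, chosen after seeing the data, the list had 1 higher and 2 lower with low, 1 lower with intermediate, and 0 higher and 1 lower with high CD301b. The count of members lower with intermediate CD301b, which is *Cd36*, was 0 with single-cell means, without the deepest cells, without those marker cells, without the fifth cluster and without the single richest *Cd36* cell, the last also chosen after seeing the data. At 1.5-fold, 9.35% to 13.5% of genes were higher with papain and 7.96% to 13.3% lower. In LCs the *Fabp4* ratio was 1.89 with a pseudocount of 10 CPM. Depth limits *Pparg*, *Rxra* and papain *Cd36*, which rest on few UMIs.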

Other observations

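Cells without antibody data and without a T cell transcript carried the members at levels nearer those of the DC classes. The 192 naive cells of this kind had 24.3 CPM of *Fabp4*, 654 CPM of *Fabp5*, 8.63 CPM of *Cd36* and 23.7 CPM of *Plin2*. The 49 papain cells had 60.8 CPM of *Fabp4*, 1485 CPM of *Fabp5* and 28.0 CPM of *Plin2*, with 2 *Cd36* UMIs.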
